A study of Mus musculus with 20 samples.

Results

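Frizzled proteins are the cell surface receptors to which Wnt proteins bind. The 10 genes of the mouse family, Fzd1 to Fzd10, were taken by name, whatever their values, from 32991 genes with a summed value in RNA-seq of mouse colon, and all 10 were found. A Frizzled receptor is a membrane protein that crosses the membrane repeatedly and carries an outer cysteine-rich domain that holds the Wnt. Together with the co-receptors Lrp5 and Lrp6 it passes the signal through Dishevelled to β-catenin, and with other partners it orients cells within a sheet, which is called planar cell polarity. In the gut, Wnt signals at the base of the crypts keep stem cells dividing, and the ligases Rnf43 and Znrf3 remove Frizzled from the cell surface there unless R-spondin bound to an Lgr receptor holds them back.

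The study compared 20 male C57BL/6 mice in 4 groups of 5. Control mice received water by gavage for 91 days, and PZH mice received 250 mg/kg of Pien Tze Huang, a traditional Chinese medicine formula, each day over the same time. AOM/DSS mice, which the labels name Model, were injected once with 12.5 mg/kg azoxymethane (AOM), a carcinogen, and drank 2% dextran sodium sulfate (DSS), which injures the colon lining, for 5 days in each of 4 cycles, with the same water gavage as Control. PZH + AOM/DSS mice received AOM and DSS as well as the daily PZH. All 4 groups had the same genetic background and sex, and no transgene or Cre was involved. AOM/DSS is a model of colitis-associated colorectal cancer. Colon tissue with its cell types mixed was sequenced, so that fewer cells of a type and less RNA per cell cannot be told apart. The study's methods do not say which segment was taken or whether it held tumour.

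Each library held an estimated 15300000 to 19400000 fragments, with group medians between 16300000 and 17100000. Levels are given as FPKM (fragments scaled by transcript length and by the fragments of the library), which is per length and allows one gene to be set beside another. The extraction text in the labels mentions abdominal aorta although the tissue is labelled colon, and the colon epithelial genes Cdh1 (215 to 311 FPKM) and Vil1 (157 to 274 FPKM) were present in all 20 mice. The gene sum of Epcam, an epithelial surface gene, was listed at 0 in all 5 Control mice. Every other group also held a mouse at 0, so such a value was not particular to Control. The highest Epcam values were 718 FPKM (PZH), 844 FPKM (AOM/DSS) and 865 FPKM (PZH + AOM/DSS). Krt8, another epithelial gene, ran from 0.105 to 3071 FPKM within Control, and its lowest value was at most 0.740 FPKM in every group. The cause was not tested for either gene. In the comparison of AOM/DSS with Control, 69.4% of all genes past the threshold were higher, against 55.0% after a median-of-ratios scaling of the libraries, which moved the median difference of all genes from 0.094 to 0.0069 on the log2 scale.

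The family falls by sequence into the groups Fzd5 and Fzd8, Fzd1, Fzd2 and Fzd7, Fzd3 and Fzd6, and Fzd4, Fzd9 and Fzd10. Coordinates are of the GRCm38 (mm10) build with the GENCODE M21 annotation, each running over the whole gene with its exons and UTRs. Fzd5 lies at chr1:64730558-64737751 on the minus strand, and Fzd7 at chr1:59482424-59486955 on the plus strand. Fzd1 (chr5:4753839-4758035, minus), Fzd9 (chr5:135248938-135251230, minus) and Fzd10 (chr5:128600844-128604093, plus) share a chromosome. Fzd2 is at chr11:102604396-102608058 on the plus strand, Fzd4 at chr7:89404355-89413134 on the plus strand, and Fzd8 on chromosome 18. Fzd3 (chr14:65192449-65262463, minus) and Fzd6 (chr15:39006034-39038188, plus) are split over 7 exons. Fzd1, Fzd2, Fzd7, Fzd8, Fzd9 and Fzd10 are single-exon genes. Fzd6 overlaps the antisense gene Gm26704 and Fzd5 overlaps Gm38058 on the opposite strand. Fzd3 overlaps Gm27263 on its own strand and the processed pseudogene Gm9086 on the opposite one, and the sources used here do not say whether reads were counted by strand.

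In Control colon Fzd5 and Fzd1 together made up more than 50% of the summed Frizzled level on average. Fzd5, a receptor known from the maturation of Paneth cells in crypts of the small intestine, averaged 14.99 FPKM ± 2.79 (SD, n = 5). Fzd1 averaged 12.8 FPKM ± 3.05 (SD, n = 5). The order then ran over Fzd7 (6.76 FPKM), Fzd6 (4.63), Fzd2 (4.40), Fzd8 (4.198) and Fzd4 (2.47), down to Fzd9 (0.187), Fzd3 (0.170) and Fzd10 (0.127 FPKM). Of the neighbours in this order, the ranges of Fzd1 and Fzd7 and those of Fzd4 and Fzd9 did not overlap, and the ranges of the other neighbours did. Fzd6, Fzd2 and Fzd8 thus could not be ordered beyond the spread between mice, and neither could Fzd9, Fzd3 and Fzd10.

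The summed level of the 10 genes averaged 50.8 FPKM ± 8.07 over the Control mice, 52.5 ± 2.44 over the PZH mice, 58.9 ± 3.20 over the AOM/DSS mice and 56.0 ± 3.82 with both treatments (SD, n = 5 each). The lowest sum was 40.01 FPKM in Control mouse 37 and the highest was 63.9 FPKM in AOM/DSS mouse 30, and the ranges of the 4 groups overlapped. The share of the sum differed by member: Fzd1 took 25.2% in Control and 31.6% in AOM/DSS, Fzd5 took 29.5% and 22.3%, and Fzd10 took 0.246% and 4.33%, as means of 5 mice.

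**Figure D1:**
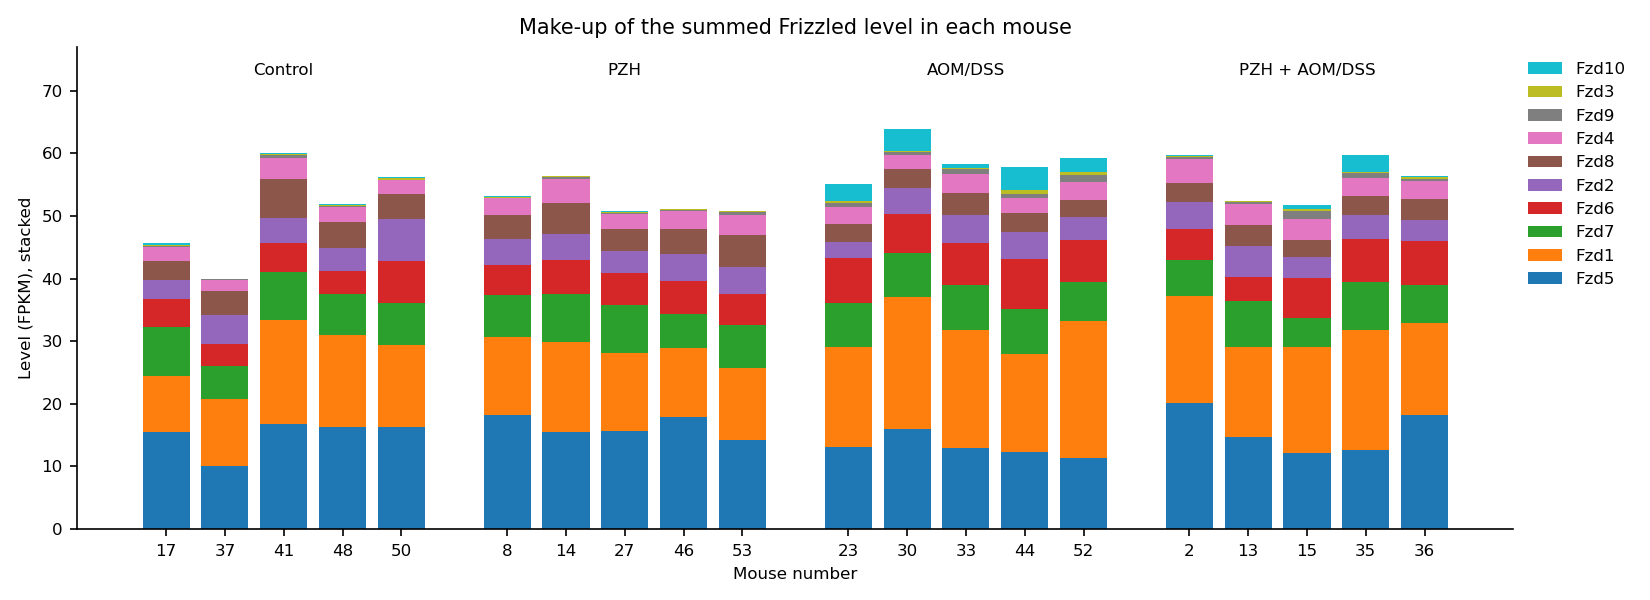
Level in FPKM of the 10 Frizzled genes, stacked, in each of 20 mice (bars, with mouse numbers), by group. Fzd5 (blue) and Fzd1 (orange) filled the lower part of each bar, and a visible Fzd10 layer (cyan, top) stood in the 5 AOM/DSS mice and in PZH + AOM/DSS mice 15 and 35.

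The members also differed in how much they varied over all 20 mice, where differences between the groups add to those between mice. Over all 20 mice Fzd7, a Wnt receptor of Lgr5-positive intestinal stem cells, was the steadiest, with a coefficient of variation of 13.3% and a range of 4.63 to 7.75 FPKM. Fzd10 was the most variable, with a coefficient of variation of 144% and a range of 0 to 3.78 FPKM. Fzd9 followed with 81.0% and Fzd3 with 51.98%, and the other 6 members lay between 17.5% for Fzd5 and 24.6% for Fzd8. Within groups, the coefficient of Fzd7 ran from 5.34% in AOM/DSS to 19.7% in PZH + AOM/DSS, where that of Fzd8 was 8.33%.

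**Figure D2:**
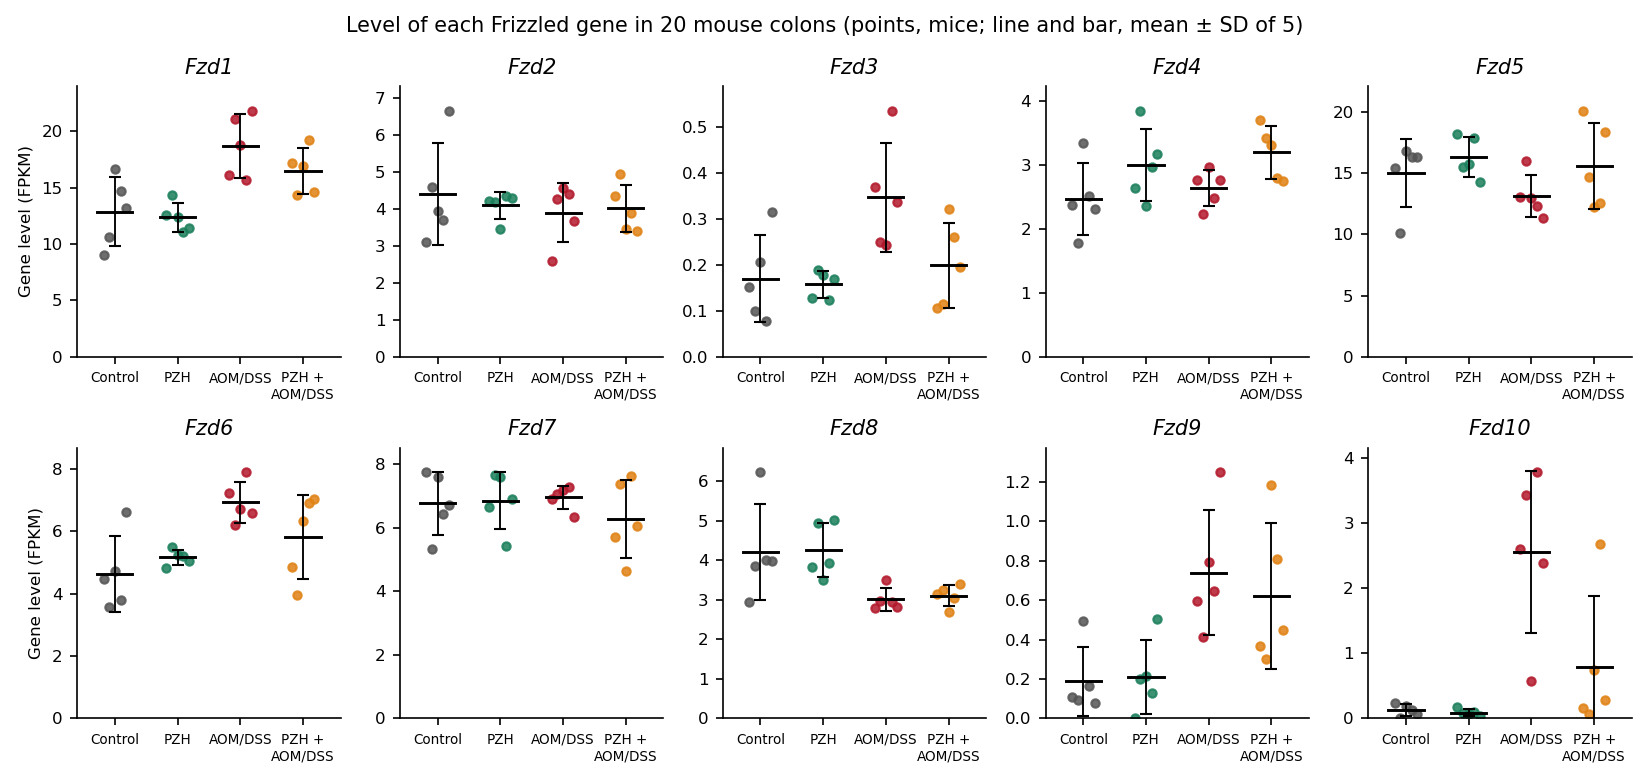
Level in FPKM of each Frizzled gene in each mouse (points) by group, with the mean and SD of 5 mice (line and bar). Each panel has its own axis from 0. The AOM/DSS mice stood above the Control mice without overlap for Fzd10, and 3 of 5 AOM/DSS mice stood above the highest Control mouse for Fzd1 and for Fzd6.

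AOM/DSS against Control addresses what the carcinogen and colitis model does to the family. Fzd10, Fzd6 and Fzd1 were higher in AOM/DSS and passed an adjusted P of 0.05 (limma over all genes tested), and no member was lower past it. Across 15812 genes tested 16.4% were called higher and 7.23% lower by the same rule. Of the 10 members 8 were tested, since Fzd3 and Fzd9 did not reach 0.5 FPKM in at least 5 of the 10 mice. Fzd10 passed that filter only through the AOM/DSS mice, each of which was above 0.5 FPKM, so that among members tested it had to differ, and the share of tested members called is not given as a result. With no filter, the median log2 difference of all 10 members was 0.14, beside 0.013 over 31007 genes. These include genes below the filter, whose differences the log2(FPKM + 1) scale holds near 0. Among genes tested, the median of the 8 members was 0.064, below the 0.094 of all 15812 genes.

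Fzd10, a receptor known for high levels in some colorectal tumours, is also a gene that the study singled out from these same mice, so its difference here is not independent evidence. In Control its levels were 0.240, 0, 0.190, 0.134 and 0.0722 FPKM in mice 17, 37, 41, 48 and 50. In AOM/DSS they were 2.61, 3.43, 0.580, 3.78 and 2.38 FPKM in mice 23, 30, 33, 44 and 52. Every AOM/DSS mouse was above every Control mouse, with mouse 33 well below its group. Groups without overlap in this direction were found for 13% of all genes tested. The AOM/DSS mean was 20.1 times the Control mean, and the difference on the log2(FPKM + 1) scale was 1.57 (SE 0.26, adjusted P = 0.00193 by limma). That scale understates the change of a gene at so low a level. The values stood on an estimated 0 to 12.8 fragments per mouse in Control and 36.2 to 207 in AOM/DSS, and in Control mouse 37 the gene was listed at 0. With median-of-ratios scaling, where 12.3% of genes were called higher, Fzd10 was the only member called. The call was kept in each fit that left out 1 mouse with the genes tested held fixed (log2 differences 1.44 to 1.84, adjusted P 2.27e-05 to 0.00592 by limma). Since Fzd10 passed the filter only through the AOM/DSS mice, neither these fits nor the lack of overlap are support apart from that selection. With no filter the adjusted P was 0.00535 by limma, where 8% of 31007 genes were called higher. With a pseudocount of 0.1 in place of 1 the log2 difference was 3.45.

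Fzd10 and markers of the crypt base were both higher in AOM/DSS than in Control. All 4 tested markers of a list of 5 were called higher in AOM/DSS, beside 16.4% of all genes tested. Among them was Lgr5 (1.96 FPKM ± 0.689 in Control and 15.4 ± 4.52 in AOM/DSS, SD, n = 5). The summed level of the list was 17.4 to 25.6 FPKM in Control and 22.5 to 33.2 in PZH. It was 76.1 to 119 FPKM in AOM/DSS, and 20.6 to 118 once PZH was added. The stem cell marker Olfm4 was at or below 0.204 FPKM in all mice. In PZH + AOM/DSS the mouse with the highest sum, mouse 35, was also the one with the highest Fzd10. Among AOM/DSS mice, mouse 44 was highest and mouse 33 lowest in both. Control mouse 17, however, had the highest Fzd10 of its group (0.240 FPKM) and the lowest sum (17.4 FPKM). Likewise, PZH mouse 8 had the highest Fzd10 of its group (0.168 FPKM) and the lowest sum (22.5 FPKM). The part of the crypt base markers in the Fzd10 level was not tested.

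Markers of squamous epithelium, which lines the anal canal beside the rectum, were also set beside Fzd10. Of their list of 6, 4 were tested in AOM/DSS against Control and 0 were called by limma, with 0 at an unadjusted P under 0.05. Their sum was 12.1 to 40.8 FPKM in AOM/DSS, 2.67 to 60.5 in PZH + AOM/DSS, 0.550 to 1.57 in PZH and 0.983 to 234 in Control. The wide Control range came from mice 17 and 50. Control mice 37, 41 and 48 stood at 2.33, 0.983 and 1.32 FPKM, below every AOM/DSS mouse. Among AOM/DSS mice, mouse 33 had the lowest sum and the lowest Fzd10, while the highest sum was in mouse 52 and the highest Fzd10 in mouse 44. In PZH + AOM/DSS mouse 35 again had the highest sum, 60.5 FPKM beside 2.67 to 9.84 in the other 4. The highest sum of all, 234 FPKM, belonged to Control mouse 17, whose 0.240 FPKM of Fzd10 was the highest in Control, while Control mouse 50 had a sum of 202 FPKM and 0.0722 FPKM of Fzd10. The defining marker Trp63 was at or below 0.1095 FPKM outside Control, where it reached 2.00 FPKM. The part of these markers in the Fzd10 level was not tested either.

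**Figure D3:**
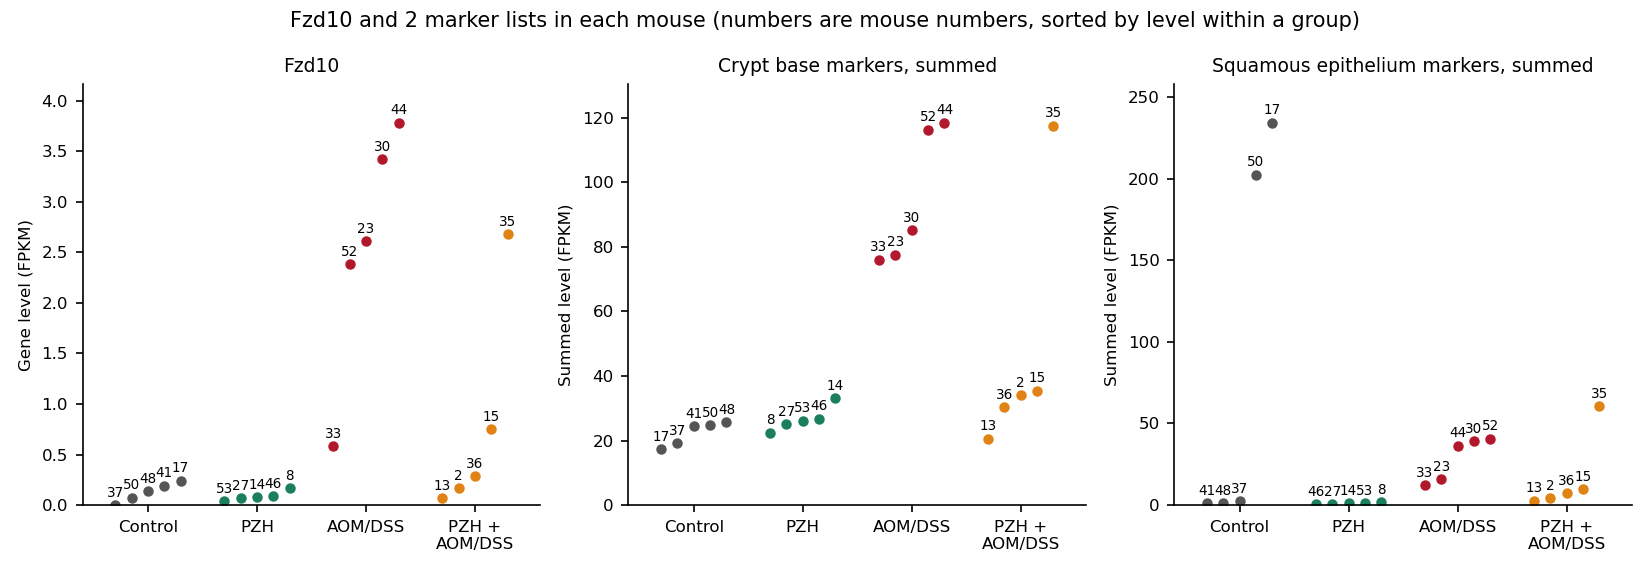
Level of Fzd10 (left) and summed levels of the crypt base (middle) and squamous epithelium (right) marker lists, in FPKM, in each mouse (points with mouse numbers) by group. PZH + AOM/DSS mouse 35 stood at 2.68 FPKM of Fzd10, 118 FPKM of crypt base markers and 60.5 FPKM of squamous markers, above the other 4 mice of its group in each.

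Fzd1, one of the subgroup that passes Wnt signals to β-catenin, was the second most abundant member in Control and the first in AOM/DSS. Its levels were 9.06, 10.6, 16.6, 14.7 and 13.1 FPKM in Control mice 17, 37, 41, 48 and 50. In AOM/DSS mice 23, 30, 33, 44 and 52 they were 16.1, 21.1, 18.7, 15.6 and 21.8 FPKM. The groups overlapped, since Control mouse 41 was above AOM/DSS mice 23 and 44. The means differed 1.45-fold (18.7 FPKM ± 2.80 against 12.8 ± 3.05, SD, n = 5 each), with a log2 difference of 0.52 (SE 0.17, adjusted P = 0.0440 by limma). This call was close to the threshold and was lost with median-of-ratios scaling, with no filter and in 8 of 10 fits that left out 1 mouse with the genes tested held fixed (adjusted P 0.0106 to 0.103 over all alternatives on gene sums).

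Its ratio to Fzd5 was chosen for description after the values were seen and is given without a test. Fzd1 over Fzd5 ran from 0.587 to 1.05 in Control, from 0.621 to 0.927 in PZH and from 1.23 to 1.92 in AOM/DSS. It ran from 0.798 to 1.53 in PZH + AOM/DSS. Fzd1 was above Fzd5 in 1 Control mouse, 0 PZH mice, 5 AOM/DSS mice and 2 PZH + AOM/DSS mice, the latter being mice 15 and 35. This ratio does not depend on how the libraries are scaled. Fzd5 itself averaged 13.1 FPKM ± 1.73 in AOM/DSS, with a log2 difference from Control of -0.17 (95% interval -0.50 to 0.16, adjusted P = 0.469 by limma).

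Fibroblast and endothelial markers were measured beside Fzd1. In AOM/DSS against Control 2 of 6 fibroblast markers were called higher and 1 lower, and their summed level was 314 to 538 FPKM in Control and 418 to 514 in AOM/DSS. Of 5 endothelial markers 2 were called higher, with sums of 14.9 to 30.6 and 26.0 to 35.2 FPKM. All 6 smooth muscle markers were called lower, with sums of 2244 to 5172 and 996 to 1734 FPKM. Of 6 markers of enteric neurons and glia 4 were called lower, with sums of 15.2 to 23.5 and 6.99 to 12.5 FPKM. Of 5 leukocyte markers tested 3 were called higher, and of 8 colon epithelial markers tested 2 were called lower. Beside these counts, 16.4% of all genes tested were called higher and 7.23% lower. The part of these markers in the Fzd1, Fzd6 and Fzd8 levels was not tested. Among 16936 genes, the pattern of Fzd1 over the 20 mice was most like that of Dr1, Pdgfra (a fibroblast marker) and Tgfbr2, with Pearson r of 0.910, 0.894 and 0.888, and 0.782, 0.749 and 0.71 after group means were subtracted.

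The 250 bases before the RefSeq start of Fzd1 (GRCm38.p6) are shown beside those of Fzd7, the steadiest member of the same subgroup over all 20 mice. Fzd1 was called close to the threshold and Fzd7 was not called, but no test compared the differences of these genes. Capitals mark matches, on either strand, to the letters of the TATA box (TATAAA), the CCAAT box (CCAAT) and the GC box (GGGCGG), where neighbouring GC boxes may share a base. The Fzd1 window is chr5:4758217-4758466 on the minus strand and the Fzd7 window is chr1:59481897-59482146 on the plus strand.
Fzd1: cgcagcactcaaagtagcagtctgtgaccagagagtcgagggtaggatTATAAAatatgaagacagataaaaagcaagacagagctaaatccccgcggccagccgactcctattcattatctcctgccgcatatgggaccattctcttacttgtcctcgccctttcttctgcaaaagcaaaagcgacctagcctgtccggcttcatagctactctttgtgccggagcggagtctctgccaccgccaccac
Fzd7: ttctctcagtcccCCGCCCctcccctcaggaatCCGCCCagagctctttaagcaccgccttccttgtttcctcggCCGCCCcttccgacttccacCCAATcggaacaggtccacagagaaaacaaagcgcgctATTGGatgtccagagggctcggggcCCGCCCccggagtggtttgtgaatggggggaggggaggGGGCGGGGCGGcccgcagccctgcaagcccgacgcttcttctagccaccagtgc

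The Fzd1 window held 1 TATAAA match, 0 CCAAT and 0 GC box matches, and had a GC content of 51.2%. The TATAAA letters start at base 49 of the window, with 196 bases between them and its end, which is farther from the start than a TATA box usually lies. The Fzd7 window held 0 TATAAA, 2 CCAAT and 6 GC box matches, and had a GC content of 65.2%. Windows of 6 members were at hand, those of Fzd1, Fzd4, Fzd5, Fzd7, Fzd9 and Fzd10, and Fzd1 was the only one of these 6 with a TATAAA match. Of 32851 mouse promoter windows of this length 12.4% held TATAAA, 33.8% CCAAT and 32.7% GGGCGG, and the median GC content was 52.4%. The Fzd10 window lies within the Ensembl gene, has a GC content of 76.4% and held 1 GC box match. The letters ATCAAAG, a form of the site bound by the TCF/LEF factors that act with β-catenin, were in none of the 6 windows and in 3.21% of all windows. These are counts of letters, and binding was not measured.

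Fzd6, which with Fzd3 is known for planar cell polarity, was also called higher in AOM/DSS. Its levels were 4.48, 3.58, 4.71, 3.78 and 6.62 FPKM in Control mice 17, 37, 41, 48 and 50. In AOM/DSS mice 23, 30, 33, 44 and 52 they were 7.24, 6.21, 6.71, 7.90 and 6.60 FPKM. The groups overlapped only through Control mouse 50, which was above AOM/DSS mice 30 and 52. Of the 6.62 FPKM of Control mouse 50, 1.13 came from ENSMUST00000227606, a short transcript (647 bases) with a retained intron. In estimated fragments, not scaled by library, Control mouse 50 stood at 394 and the AOM/DSS mice at 429 to 514. The means were 4.63 FPKM ± 1.21 and 6.93 ± 0.655 (SD, n = 5 each), a 1.496-fold difference, and the log2 difference was 0.51 (SE 0.15, adjusted P = 0.0320 by limma). The call was lost with median-of-ratios scaling and in 8 of 10 fits that left out 1 mouse (adjusted P 0.00785 to 0.0788 over all alternatives on gene sums).

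The 5 Fzd6 transcripts showed which part of the gene carried this level. ENSMUST00000022906 (4081 bases) and ENSMUST00000179165 (4325 bases) share the same coding parts, 2127 bases over 6 exons, and differ outside them. The first gave more than 50% of the Fzd6 level in 17 mice, with a median of 79.5% over all 20. The second gave more than 50% in the other 3, which were Control mouse 37 and PZH + AOM/DSS mice 13 and 35. In mouse 35 the first was listed at 0 and the second reached 6.21 FPKM, 89.97% of the gene. Tested alone, ENSMUST00000022906 differed between AOM/DSS and Control by 0.87 on the log2 scale (SE 0.38, unadjusted P = 0.0439, adjusted P = 0.225 by limma over transcripts). The division of fragments between transcripts that share most of their length is an estimate of the assembler. For Fzd5, 2 transcripts with the same coding part were listed, and ENSMUST00000063982 gave 79.8% to 93.1% of the gene in all 20 mice.

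**Figure D4:**
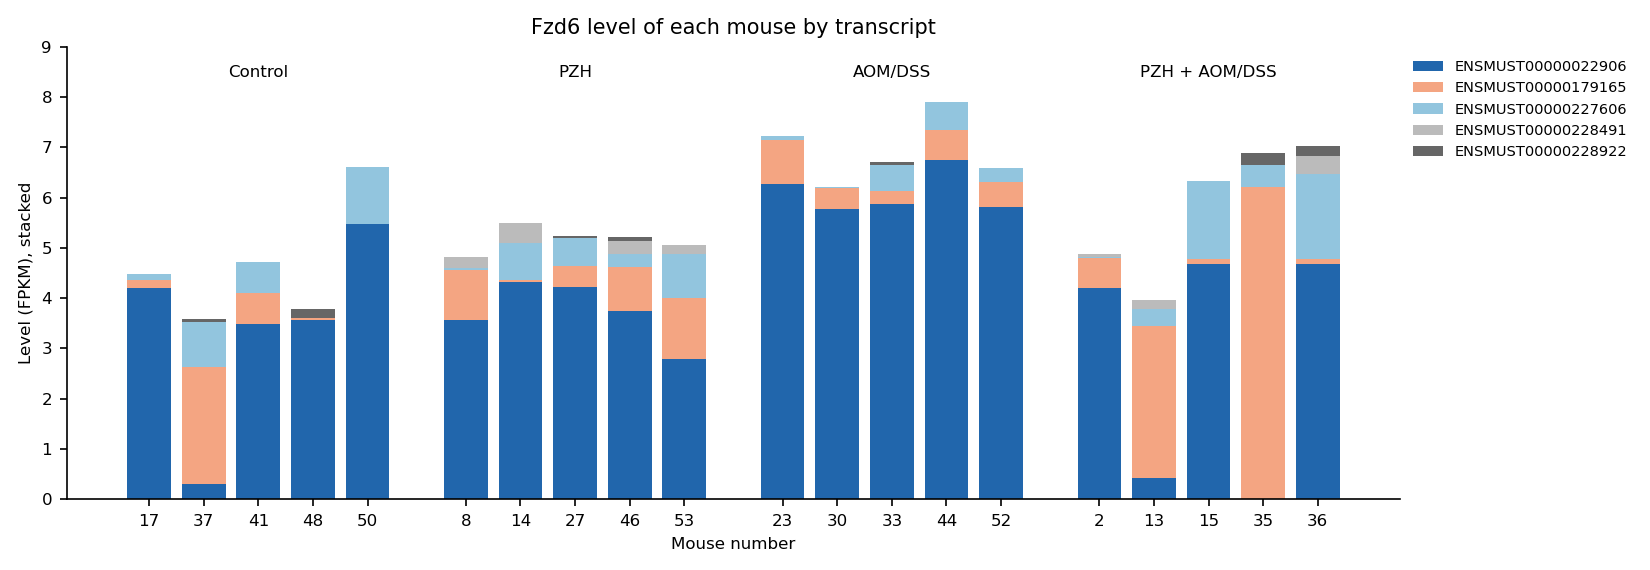
Fzd6 level in FPKM of each mouse (bars, with mouse numbers), stacked by transcript. ENSMUST00000022906 (dark blue) filled most of the bar in 17 mice, and ENSMUST00000179165 (orange) did in Control mouse 37 and in PZH + AOM/DSS mice 13 and 35.

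Fzd9 and Fzd3, at low levels throughout, were not tested because of the filter. Fzd9 was 0.107, 0.0954, 0.493, 0.163 and 0.0767 FPKM in Control mice 17, 37, 41, 48 and 50. In AOM/DSS mice 23, 30, 33, 44 and 52 it was 0.597, 0.413, 0.794, 0.647 and 1.25 FPKM. Only Control mouse 41 reached into the AOM/DSS range. With no filter its log2 difference was 0.55 (SE 0.13, adjusted P = 0.0270 by limma), where 8% of 31007 genes were called higher, and it stood on 3 to 22 fragments per mouse in Control and 16.0 to 50.5 in AOM/DSS. Fzd3, the partner of Fzd6 in planar cell polarity, was 0.0782 to 0.316 FPKM in Control and 0.243 to 0.536 in AOM/DSS, and with no filter its log2 difference was 0.20 (unadjusted P = 0.0201, adjusted P = 0.116 by limma).

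Fzd8, the close relative of Fzd5, stood lower in AOM/DSS without passing the threshold. Its levels were 2.93, 3.84, 6.23, 4.01 and 3.98 FPKM in Control mice 17, 37, 41, 48 and 50. In AOM/DSS mice 23, 30, 33, 44 and 52 they were 2.80, 2.97, 3.50, 2.95 and 2.82 FPKM. Apart from Control mouse 17, every Control mouse was above every AOM/DSS mouse. The log2 difference was -0.35 (95% interval -0.70 to 0.0020, unadjusted P = 0.0511, adjusted P = 0.141 by limma). The intervals of Fzd2 (-0.54 to 0.29), Fzd4 (-0.22 to 0.38) and Fzd7 (-0.22 to 0.30) held 0.

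**Figure D5:**
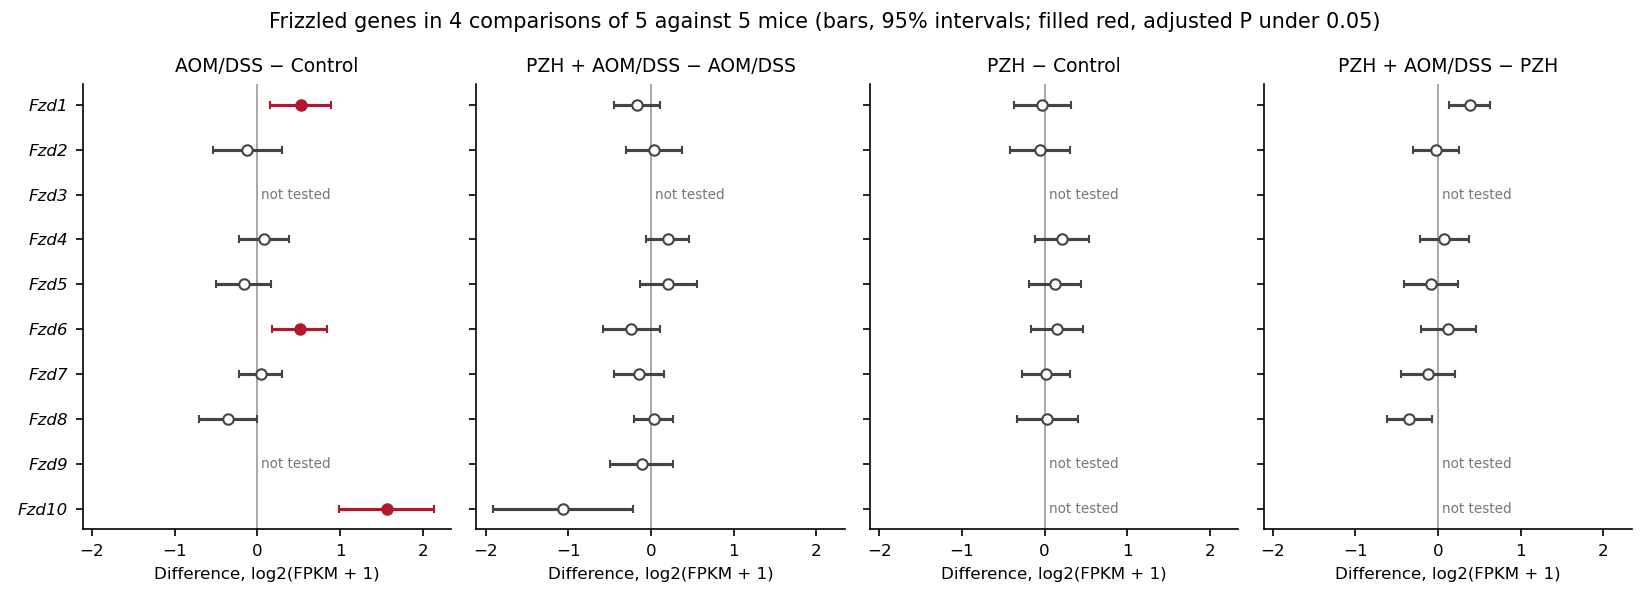
Difference on the log2(FPKM + 1) scale of each Frizzled gene in 4 comparisons of 5 against 5 mice, with 95% intervals from limma (bars). Filled red points passed an adjusted P of 0.05, which were Fzd1, Fzd6 and Fzd10 in AOM/DSS against Control, and members below the filter are written as not tested.

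PZH + AOM/DSS against AOM/DSS addresses what PZH does in the model, and it shares the AOM/DSS mice with the comparison above. None of the 9 members tested was called by limma, and 1, Fzd10, had an unadjusted P under 0.05. Over all 15888 genes tested 0.00629% were called, and 8.21% were lower at an unadjusted P under 0.05. With no filter, the median log2 difference of all 10 members was -0.13, beside -0.0031 over 31108 genes, which again include genes below the filter. Among genes tested, the median of the 9 members was -0.11, beside -0.038 over all 15888 genes.

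Fzd10 was 0.164, 0.0706, 0.750, 2.68 and 0.288 FPKM in PZH + AOM/DSS mice 2, 13, 15, 35 and 36. Mouse 35 lay within the AOM/DSS range of 0.580 to 3.78 FPKM, mouse 15 lay just inside its lower end, and the other 3 lay below it. The mean was 0.791 FPKM ± 1.09 against 2.56 ± 1.25 (SD, n = 5 each), and the log2 difference was -1.06 (95% interval -1.91 to -0.21, unadjusted P = 0.0188, adjusted P = 0.363 by limma). With a pseudocount of 0.1 in place of 1 the log2 difference was -2.11 (adjusted P = 0.370 by limma). Without mouse 35 it was -1.36 and passed the threshold (adjusted P = 0.0378 by limma), in a fit where 4.41% of 15639 genes were called lower. Mouse 35 had the highest Fzd10 of its group, so leaving it out had to widen the difference. The AOM/DSS mice, each above 0.5 FPKM, were enough to carry Fzd10 past the filter, so this call is not support apart from that selection. The call rests on whether mouse 35 is counted, and no label sets that mouse apart from its group.

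Fzd3, which was not tested because of the filter, was 0.106, 0.115, 0.321, 0.261 and 0.195 FPKM in PZH + AOM/DSS mice 2, 13, 15, 35 and 36, of which 3 lay below the AOM/DSS range. Its mean was 0.575 times that of AOM/DSS, and with no filter its log2 difference was -0.17 (unadjusted P = 0.0452, adjusted P = 0.508 by limma). Of the 9 members tested, those other than Fzd10 each had an unadjusted P above 0.05.

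Fzd1 was 17.2, 14.3, 16.9, 19.2 and 14.6 FPKM in PZH + AOM/DSS mice 2, 13, 15, 35 and 36, of which 2 lay below the AOM/DSS range. Its log2 difference was -0.17 (95% interval -0.45 to 0.12, adjusted P = 0.622 by limma). Fzd6 was 4.87, 3.95, 6.34, 6.90 and 7.03 FPKM in the same mice, of which 2 lay below the AOM/DSS range. In mice 15 and 36, 1.55 and 1.68 FPKM of this came from the short retained-intron transcript ENSMUST00000227606. Estimated fragments, not scaled by library, were 307, 264, 337, 476 and 348 in these mice, against 429 to 514 in AOM/DSS. The log2 difference of the Fzd6 gene sum was -0.24 (95% interval -0.58 to 0.11, adjusted P = 0.562 by limma). Fzd9 averaged 0.622 FPKM ± 0.371 against 0.740 ± 0.316, and Fzd8 averaged 3.10 ± 0.258 against 3.01 ± 0.287 (SD, n = 5 each). Fzd4, a receptor of Wnts and of the vessel growth signal Norrin, averaged 3.20 FPKM ± 0.417 against 2.65 ± 0.282, with a log2 difference of 0.20 (95% interval -0.058 to 0.46, adjusted P = 0.523 by limma).

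PZH against Control gives the effect of PZH in mice without AOM and DSS. Of the 7 members tested 0 were called by limma and 0 had an unadjusted P under 0.05, where 8.84% of 15506 genes had one and 0.00645% were called. The widest of the 7 intervals was that of Fzd8, -0.34 to 0.40 on the log2 scale. Fzd5 averaged 16.3 FPKM ± 1.66 in PZH and Fzd1 12.4 ± 1.29 (SD, n = 5 each). Fzd10 was between 0.0401 and 0.168 FPKM in all 5 PZH mice, on 2 to 9 fragments, and Fzd9 between 0 and 0.505 FPKM. All 10 members overlapped between the groups, and groups without overlap made up 1.81% of all genes tested.

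PZH + AOM/DSS against PZH compares the model with its absence among mice that all received PZH. Of 7 members tested 0 were called by limma, beside 2.42% of 15636 genes, and Fzd1 and Fzd8 had an unadjusted P under 0.05. Fzd1 was 12.5, 14.4, 12.4, 11.1 and 11.4 FPKM in PZH mice 8, 14, 27, 46 and 53, and only mouse 14 reached the lower end of the PZH + AOM/DSS range. The log2 difference of Fzd1 was 0.38 (SE 0.11, unadjusted P = 0.00624, adjusted P = 0.0964 by limma), where 13% of all genes were higher at that unadjusted threshold. Set beside it, the log2 difference of Fzd1 between AOM/DSS and Control was 0.52.

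Fzd8 was 3.84, 4.93, 3.51, 3.93 and 5.02 FPKM in PZH mice 8, 14, 27, 46 and 53. In PZH + AOM/DSS mice 2, 13, 15, 35 and 36 it was 3.15, 3.23, 2.70, 3.05 and 3.39 FPKM. Every PZH + AOM/DSS mouse was below every PZH mouse, which was so for 2.37% of all genes tested. The log2 difference was -0.35 (SE 0.12, unadjusted P = 0.0182, adjusted P = 0.149 by limma), where 7.89% of all genes were lower at that unadjusted threshold. Fzd9 and Fzd10 were below the filter here, and with no filter their log2 differences were 0.41 (unadjusted P = 0.0266, adjusted P = 0.283) and 0.55 (unadjusted P = 0.0869, adjusted P = 0.446 by limma).

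The interaction of PZH and AOM/DSS asks whether the PZH difference itself depended on the model, over all 20 mice. Of the 9 members tested 0 were called by limma, beside 0.0118% of 16936 genes, and 1, Fzd10, had an unadjusted P under 0.05. Its interaction was -1.01 on the log2 scale (95% interval -1.87 to -0.16, unadjusted P = 0.0231, adjusted P = 0.417 by limma), where 6.92% of all genes were lower at that unadjusted threshold, and -1.93 with a pseudocount of 0.1. Without PZH + AOM/DSS mouse 35 it was -1.31 and passed (adjusted P = 0.0294 by limma), where 2.49% of 16814 genes were called lower. Since that mouse had the highest Fzd10 of its group, leaving it out had to make the interaction more negative. The AOM/DSS mice were again enough to carry Fzd10 past the filter. The interaction of Fzd6 was -0.39 (95% interval -0.83 to 0.041, adjusted P = 0.530 by limma).

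The genes around the receptors were counted in lists written with earlier results of these data known. Their calls are given without median-of-ratios scaling, under which the calls of Fzd1 and Fzd6 were lost. List calls close to the threshold carry the same limit. Of the Wnt ligands 10 of 19 were tested in AOM/DSS against Control, and 5 were called higher and 1 lower, beside 16.4% and 7.23% of all genes tested. Of these 6, Wnt10a, Wnt16 and Wnt3 passed the filter only through the AOM/DSS mice and Wnt8b only through the Control mice, so that they had to differ and the count is not given as a result. Wnt6 and Wnt5a, the latter a Wnt that often signals without β-catenin, passed it otherwise and differed by 3.55 and 1.27 on the log2 scale. Of the former, Wnt10a differed most (0.109 FPKM ± 0.0816 in Control and 10.7 ± 5.39 in AOM/DSS, SD, n = 5 each, log2 difference 3.29). Wnt16 differed by 1.29, Wnt3 by 0.96 and Wnt8b by -0.62 on the log2 scale, and Wnt3 and Wnt8b were named after their values were seen.

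Of the other 6 receptors and co-receptors that take part in Wnt binding, 3 were called higher and 1 lower, beside 16.4% and 7.23% of all genes tested. Lrp5 was at 20.6 FPKM ± 2.96 in Control and 28.2 ± 3.68 in AOM/DSS (SD, n = 5 each, log2 difference 0.44, adjusted P = 0.0313 by limma). The kinase-like receptors Ptk7 and Ror2 differed by 1.38 and 0.56, and Ror1 fell by 0.41 on the log2 scale.

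Of the 9 genes that set how long Frizzled stays at the membrane 6 were tested, with 4 called higher and 1 lower. Of all genes tested, 16.4% were called higher and 7.23% lower. The ligase Rnf43 was 8.47 FPKM ± 1.61 in Control and 31.9 ± 7.73 in AOM/DSS (SD, n = 5 each, log2 difference 1.78, adjusted P = 8.23e-05 by limma), and the ligase Znrf3 differed by 0.90. Of the R-spondin receptors, Lgr5 and Lgr6 differed by 2.46 and 1.91 and were called higher. Lgr6 passed the filter only through the AOM/DSS mice and so had to differ, and the count of 4 is not given as a result. Lgr4, named after its value was seen, was called lower (log2 difference -0.41, adjusted P = 0.0408 by limma). Both ligases, which remove Frizzled, and Lgr5, one of the receptors that hold the ligases back, were thus called higher without passing the filter through 1 group alone.

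Of the 5 secreted Frizzled-related proteins, which carry a Frizzled-like domain and bind Wnts outside the cell, Sfrp1 and Frzb were called higher (log2 differences 1.12 and 0.58). Sfrp5 was called lower by 0.50 on the log2 scale (log2 difference -0.50, adjusted P = 0.0484 by limma). Of the selective partners 3 of 4 were tested, and Reck, a Wnt7 co-receptor that also inhibits matrix proteases, was called lower (log2 difference -0.64). Of the planar cell polarity genes 7 of 9 were tested and 2 were called, Vangl2 (log2 difference 1.71) and Vangl1 (log2 difference 0.72), both higher in the same comparison as Fzd6. Of the 3 Dishevelled genes, which carry the signal of every Frizzled, 0 were called by limma and 0 had an unadjusted P under 0.05, with log2 differences of 0.07 to 0.42. Beside the counts of these lists, 16.4% of all genes tested in this comparison were called higher and 7.23% lower.

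In PZH against Control 0 of 35 genes tested in these 7 lists were called by limma, and 3 had an unadjusted P under 0.05, all lower, where 4.50% of all genes were lower at that threshold. In PZH + AOM/DSS against AOM/DSS 0 of 40 were called by limma, while 10 were lower and 1 was higher at an unadjusted P under 0.05, where 8.21% of all genes were lower and 3.51% higher. In the interaction 0 of 42 were called by limma, while 8 were lower and 2 higher at an unadjusted P under 0.05, where 6.92% of all genes were lower and 3.41% higher. Both comparisons reuse the AOM/DSS mice, and the lists were written with earlier results known. Among the 10 lower genes were Wnt10a, Wnt16 and Wnt3, which had passed the filter against Control only through those mice. Neither the count of 10 nor that of 8 is given as a result. In PZH + AOM/DSS against PZH 1 of 33 was called, beside 2.42% of all genes. It was Sfrp1, which was higher (log2 difference 0.93, adjusted P = 0.0431 by limma) and is named after its value was seen. The levels in PZH + AOM/DSS spread widely, as for Fzd10, with Rnf43 at 16.4 FPKM ± 13.99 and Wnt10a at 2.80 ± 4.45 (SD, n = 5 each).

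By their pattern over the 20 mice, the genes most like Fzd10 were Rbm11, Adcy1 and Dlx3, with Pearson r of 0.980, 0.980 and 0.978 on the log2 scale, and 0.958, 0.942 and 0.932 after group means were subtracted. Those most like Fzd9 were Abce1, Heatr1 and Tfdp1 (r of 0.918, 0.918 and 0.911). Those most like Fzd6 were Actn1, Pbrm1 and 0610010F05Rik (0.880, 0.866 and 0.865), and those most like Fzd8 were Gm19391, Pcca and Cttnbp2 (0.882, 0.865 and 0.852). The likeness of Fzd2 and Fzd7 to any other gene was lower, with highest r of 0.749 (Gjc1) and 0.761 (Frmd6). Fzd4 was most like Dlc1 (0.808) and Kdr (0.788), the latter a marker of endothelium, and Fzd5 was most like Fam8a1 (0.826), Ncoa1 (0.817) and Adgra3 (0.814). The mice are shared by all these values and the 4 groups differ in level, so they are descriptions without a test.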

How the data were processed

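Transcript levels of 20 mouse colon libraries were analysed. Per the study's methods, ribosomal RNA was removed, reads were aligned to mm10 with HISAT2, and transcripts were assembled and quantified with StringTie. In the deposited tables each transcript has an FPKM value. The sources used here do not print the unit, which was read from the values: value times length came in steps of whole or part fragments, from which the depth of 15300000 to 19400000 fragments was estimated. Each table held 118434 transcripts, and the 96032 with an identifier in GENCODE M21 were summed to 32991 genes. A further 22252 assembled transcripts without a gene name were not used, so a gene sum can miss fragments placed on them.

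Genes with at least 0.5 FPKM in at least 5 mice of a comparison were tested on log2(FPKM + 1) with limma 3.58.1 (R 4.3.3, with the trend of the variance on the mean level), two-sided, with Benjamini-Hochberg adjustment over all genes tested and a threshold of 0.05. Such a gene is written as called. Each pairwise comparison used its own 10 mice. The study's methods name DESeq, a test for counts, which was not used because the files hold FPKM. Each library is 1 numbered mouse, and P-values measure the spread between mice. Members were taken by name, pathway and marker lists were written by hand, and of each pathway list at most 4 genes with the largest difference between AOM/DSS and Control were named. Members and lists were chosen with earlier results of these data known. The 3 genes most like a member were found by Pearson r of log2(FPKM + 1). Alternatives were a pseudocount of 0.1, no filter, a mean of at least 1 FPKM, median-of-ratios scaling, all 20 mice in one model, single transcripts and leaving out each mouse. Leaving out a mouse with the genes tested held fixed was added after the data were seen. The fit was tested on simulated data. Promoter windows came from RefSeq (GRCm38.p6) and matched 6 of 10 members by symbol. Fzd2, Fzd3, Fzd6 and Fzd8 are not shown.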

Additional observations from a re-analysis of the deposited data

Results flagged for a closer look

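In 5 of 40 sets of 5 values (10 members in 4 groups) 1 mouse stood apart from the other 4 by Dixon's criterion at the 95% level (a gap of more than 0.71 of the range), where chance alone gives about 2. For Fzd10, PZH + AOM/DSS mouse 35 was at 2.68 FPKM and the next mouse at 0.750. For Fzd5, Control mouse 37 was at 10.1 FPKM and the next at 15.4, and this mouse also had the lowest summed Frizzled level. For Fzd9, Control mouse 41 was at 0.493 FPKM and the next at 0.163. For Fzd8, AOM/DSS mouse 33 was at 3.50 FPKM and the next at 2.97, and for Fzd2, PZH mouse 27 was at 3.45 FPKM and the next at 4.17. The cause was not tested for any of them.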

How the results depend on the processing

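In AOM/DSS against Control 3 members were called, and 1, Fzd10, was with median-of-ratios scaling and with single transcripts. Leaving out 1 mouse gave 0 to 2 members. Without an AOM/DSS mouse Fzd10 falls below the filter of 5 mice by construction, and with the genes held fixed 1 to 2 were called. In PZH + AOM/DSS against AOM/DSS and in the interaction the count was 0. Leaving out 1 mouse gave a count of 0 to 1, the 1 being Fzd10 without PZH + AOM/DSS mouse 35, the highest of its group. In PZH against Control and PZH + AOM/DSS against PZH it was 0 under each alternative run. At an unadjusted P under 0.05 by limma, 0 and 2 members stood as reported, and over the alternatives 0 to 1 (Fzd6 without Control mouse 50) and 1 to 3 (3 with no filter). Fzd10 between AOM/DSS and Control was called in each fit that tested it, though it passed the 0.5 FPKM filter only through the AOM/DSS mice. A pseudocount of 0.1 took its log2 difference from 1.57 to 3.45, and from -1.06 to -2.11 and -1.01 to -1.93 in PZH + AOM/DSS against AOM/DSS and the interaction, with no call changed. Differences near 0 changed sign. With median-of-ratios scaling Fzd7 between AOM/DSS and Control was -0.056 and the Fzd4 interaction was 0.024 on the log2 scale. Leaving out 1 mouse gave, in PZH against Control, -0.13 to 0.068 for Fzd1, -0.14 to 0.081 for Fzd2, -0.054 to 0.087 for Fzd7 and -0.061 to 0.16 for Fzd8. In AOM/DSS against Control it gave -0.21 to 0.011 for Fzd2 and -0.028 to 0.090 for Fzd7. For Fzd2 it gave -0.067 to 0.090 in PZH + AOM/DSS against AOM/DSS and -0.094 to 0.014 against PZH. In the interaction it gave -0.041 to 0.18 for Fzd2, -0.092 to 0.068 for Fzd4, -0.011 to 0.21 for Fzd5 and -0.12 to 0.096 for Fzd8. The cause was not tested. No paired analysis was possible because the groups share no mouse number. Depth limits Fzd3, Fzd9 and Fzd10, which stood on few fragments in Control and PZH.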
